A study of Monodelphis domestica and Mus musculus with 26 samples.

Results

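Barcodes with counts of macrophage and other immune-cell genes were taken from adult testis in 6 droplet-based single-cell RNA-sequencing libraries, 3 of mouse (Mus musculus) and 3 of gray short-tailed opossum (Monodelphis domestica). A barcode was kept at a minimum of 1000 counts and 500 genes. It was called a member when its summed count over 9 leukocyte and macrophage genes (Ptprc, Csf1r, Cd74, C1qa, C1qb, C1qc, Tyrobp, Laptm5 and Cd68, matched without regard to case) reached 2.5. This gave 1368 members of 47192 kept barcodes. Of these, 204 of 25445 were mouse (0.802%) and 1164 of 21747 were opossum (5.35%). All 9 genes were found in mouse, but C1QB, TYROBP and CD68 were not among the 11523 named opossum features, so the rule had 6 genes there and was not identical in the species. The name immune cell does not hold for all members: in mouse, clusters of 36, 34 and 18 of the 204 members were led by genes of germ cells or Leydig cells.

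The mice were adult C57BL6/J of 8 to 16 weeks per the labels, which name no engineered allele and no treatment; for mouse replicate 3 no strain is given. The opossums of the single-cell libraries were adults, and no strain or treatment is named for them. Opossum testis was also profiled in 20 bulk libraries: 16 polyA-selected (1 month, n = 2; 2 months, n = 1; 3 months, n = 4; 4 months, n = 3; adult, n = 6) and 4 depleted of ribosomal RNA (2 months, n = 3; adult, n = 1). The labels do not say that replicates came from separate animals, so p-values measure at most the spread between these libraries. In the mouse single-cell fit a single spread was shared by all genes. The p-value of a mouse gene therefore does not measure that gene's own spread between libraries.

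Macrophages are the main leukocytes of the testis interstitium and lie among the Leydig cells and blood vessels and around the seminiferous tubules. They depend on signals through the receptor CSF1R, take up dying cells and debris, digest them in lysosomes, produce the complement protein C1q, and present peptides on class II major histocompatibility molecules. The transcription factor PU.1, encoded by Spi1, is required for the myeloid lineage and binds a purine-rich sequence with the core GGAA. Lymphocytes and mast cells are normally a minority of testis leukocytes, and the blood-testis barrier shields from them the germ cells that lie inside it.

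As the members were collected for leukocyte genes, the upstream sequences of 2 genes called higher in mouse members are shown for the roles they stand for. They were taken from listed genes that hold, near their start, the 8-letter sequence GAGGAAGT, a form of the PU.1 core, or its reverse complement ACTTCCTC. The match, in capitals, was thus a condition of the choice and not a result. Fcer1g encodes the signalling chain shared by activating Fc receptors (250 bases before its start, chr1:171062220-171062469, minus strand) and Ncf4 a cytosolic subunit of the NADPH oxidase (chr15:78128732-78128981, plus strand). Sequences are read 5′ to 3′ in the direction of the gene from the GRCm39 genome, with starts from GENCODE vM39.
Fcer1g: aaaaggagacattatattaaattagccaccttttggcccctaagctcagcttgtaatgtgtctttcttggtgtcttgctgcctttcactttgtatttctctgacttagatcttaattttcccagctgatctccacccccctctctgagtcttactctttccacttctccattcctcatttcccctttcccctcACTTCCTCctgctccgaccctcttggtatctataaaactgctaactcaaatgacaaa
Ncf4: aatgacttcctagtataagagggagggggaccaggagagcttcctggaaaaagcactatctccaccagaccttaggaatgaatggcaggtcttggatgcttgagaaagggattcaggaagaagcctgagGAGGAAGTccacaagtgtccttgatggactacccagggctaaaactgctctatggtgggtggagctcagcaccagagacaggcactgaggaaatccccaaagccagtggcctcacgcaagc
In the window from 250 bases before to 50 after the start, searched on both strands, the sequence was present in 80 of 1619 genes called higher in mouse members (4.94%), in 43 of 1658 called lower (2.59%) and in 511 of all 18497 tested genes with a window (2.76%). A match describes these letters and is not evidence of binding. No opossum genome was used here.

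Values of 3 single-cell libraries are given below in the order of replicates 1, 2 and 3. Levels are CPM, counts scaled to a fixed total (1e6), of the summed counts of a library's members or of its other kept barcodes; they are not divided by gene length and are compared only within a gene. Kept barcodes numbered 7835 to 9472 per mouse library and 5572 to 8126 per opossum library. The highest number of barcodes that any pair of libraries shared was 76 (mouse replicates 1 and 2, 0.970% of the smaller library). The 20 bulk libraries held 2.90 to 7.12 aligned gigabases. Mouse replicate 3 stood apart: 78.5% of its members were among the 8% of barcodes with the highest doublet score, against 20.8% and 18.6% in mouse replicates 1 and 2 and 7.39% to 16.0% in opossum. Without those barcodes 14 members were left in that library, and results that rest on it are given with and without them where a call changed.

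Members made up 1.18%, 0.549% and 0.686% of kept mouse barcodes (96, 43 and 65 cells; mean 0.805% ± 0.332, SD, n = 3) and 2.91%, 5.34% and 7.06% of kept opossum barcodes (162, 434 and 568 cells; mean 5.10% ± 2.09, SD, n = 3). All 3 opossum libraries were above all 3 mouse libraries. These shares follow from the rule, which had fewer genes in opossum, and were not tested. The median depth of mouse members was 2536, 2142 and 2048 counts, below that of the other kept barcodes (2771, 4522 and 2971). In opossum it was 6280, 2882 and 2168 counts, above that of the others (1954, 2275 and 1590). The median sum over the rule genes was 41.4, 10.96 and 19.7 counts in mouse members and 31.9, 9.98 and 8.94 in opossum members. Near the limit, 32 mouse and 142 opossum members had a sum from 2.5 to 4, and 203 mouse and 117 opossum barcodes had a sum from 1 to 2.5. At a sum of at least 5 there would be 166 mouse and 939 opossum members.

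**Figure D1:**
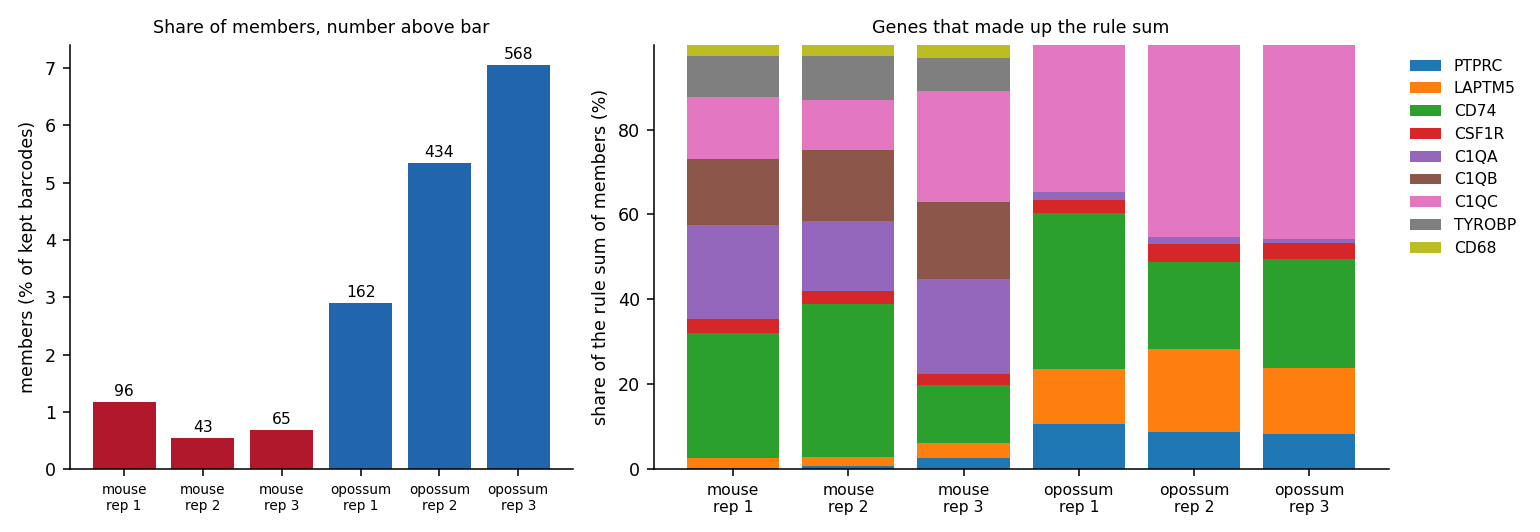
Left, share of kept barcodes that were members in each single-cell library (percent), with the number of members above each bar; right, share of the summed rule-gene count of the members that each rule gene supplied (percent). Opossum bars lie between 2.91% and 7.06% and mouse bars between 0.549% and 1.18%, and C1QC supplied 34.8% to 45.7% of the opossum sum.

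The genes of the rule are described without a test. Ptprc (CD45, the phosphatase on all leukocytes) was detected in 9.38%, 9.30% and 40.0% of mouse members, at 18.4, 20.1 and 153 CPM, and in 88.9%, 56.0% and 49.1% of opossum members, at 665, 327 and 368 CPM. It was therefore rarely detected in mouse replicates 1 and 2. In the other kept barcodes, mostly germ cells that should lack it, the share was at most 0.386% in mouse and 0.762% in opossum, at the depths given above. Cd74, the chaperone of class II molecules, reached 2620.0, 1101 and 789.5 CPM in mouse members and 2306, 756 and 1137 CPM in opossum members, and was highest in replicate 1 of each species. Laptm5, a lysosomal protein of blood cells, stood at 219, 65.5 and 208 CPM in mouse and 825, 729 and 693 CPM in opossum members. Csf1r stood at 294, 98.4 and 159 and 193, 157 and 160.2 CPM, and C1qa at 1982, 499 and 1298 and 117, 66.5 and 50.3 CPM, in mouse and opossum members. Tyrobp, an adaptor of activating receptors, and Cd68, a lysosomal glycoprotein, could be followed in mouse only (861, 312 and 446 CPM and 239.9, 85.6 and 186 CPM). Mouse replicate 2 had the lowest level of 7 of the 9 genes. Of the 9, C1qb alone was above 1 CPM in the other mouse barcodes (7.63, 6.32 and 6.66 CPM, in 3.51% to 5.58% of them).

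All other genes were compared between members and other kept barcodes within each library, in each species. Since the members were selected on 9 leukocyte genes, genes that travel with those 9 had to be higher, and calls describe which genes accompany them. The low-count filter could be passed through the members alone. Genes nearly absent from the other barcodes were thus tested only because members held them. Counts of called genes among those tested, and list medians, carry this selection and are a description. A gene was called at an adjusted p under 0.05 (edgeR quasi-likelihood test, Benjamini-Hochberg) and a log2 difference of 1 or more in size. In mouse, 3284 of 18657 tested genes were called (17.6%), 1621 higher in members (8.69%) and 1663 lower (8.91%). In opossum, 3411 of 18226 were called (18.7%), 2154 higher (11.8%) and 1257 lower (6.9%). The median log2 difference over all tested genes was -0.24 in mouse and -0.54 in opossum. With the RLE scaling the opossum median moved to -0.72 and 44.3% rather than 63.1% of the called genes were higher; with DESeq2 33.6% were. In mouse 49.4% of the called genes were higher, 61.6% with DESeq2, and 93.0% with no replicate block (857 higher and 65 lower). The mouse fit shared a single spread over all genes, whereas the opossum fit had a prior of 3.07 degrees of freedom, so adjusted p-values of the species cannot be set against each other. The mouse count was 1399 without mouse replicate 1 (789 higher and 610 lower), 3825 without replicate 2 (1442 and 2383), 1822 without replicate 3 (1049 and 773), 3150 at a minimum of 2000 counts (1175 and 1975), and 639 without the barcodes of highest doublet score (390 and 249). Without opossum replicate 3 the opossum count was 373, with 371 higher and 2 lower, so the calls of lower genes in opossum depend on that library.

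Genes of macrophage identity were higher in the members of both species. Of 20 listed genes, 18 passed the low-count filter in mouse and 17 were called higher (list median 7.32). In opossum 9 carried a name, 7 passed the filter and 7 were called higher (list median 5.48). The counts of this and the following lists stand beside 8.69% of all tested mouse genes and 11.8% of all tested opossum genes called higher. Mrc1, the mannose receptor, had 389, 190.0 and 582 CPM in members and 1.48, 0.159 and 7.86 CPM in the other kept barcodes in mouse (log2 difference 7.76, SE 0.38, adjusted p = 3.67e-91). Opossum MRC1 had 2357, 2636 and 1893 CPM in members and 4.41, 4.07 and 8.19 CPM in the other kept barcodes (log2 difference 9.12, SE 0.46, adjusted p = 0.00186; chromosome 8, 256126888 to 256255641 in the deposited bulk tables). Members were far above the others in all 6 libraries, with no overlap. Mouse Pf4, a platelet and macrophage chemokine (chromosome 5, 90918479 to 90922110 in GRCm39), had 546, 271 and 778 CPM in members and 0.161, 0.137 and 0.0252 CPM in the other kept barcodes (log2 difference 12.03, SE 0.46, adjusted p = 1.40e-146). Maf, a transcription factor of macrophages and other leukocytes, rose by 5.18 in mouse and MAF by 3.91 in opossum on the log2 scale (adjusted p = 1.82e-44 and 0.00382). Stab1, a scavenger receptor, rose by 8.95 and 5.48 (adjusted p = 4.08e-100 and 0.00186). Mouse Aif1 (IBA1) was not called: members had 1160.4, 796 and 767 CPM, but the other barcodes already had 536, 453 and 441 CPM (log2 difference 0.84, adjusted p = 0.0244). The groups did not overlap, and the size was under the limit of 1.

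**Figure D2:**
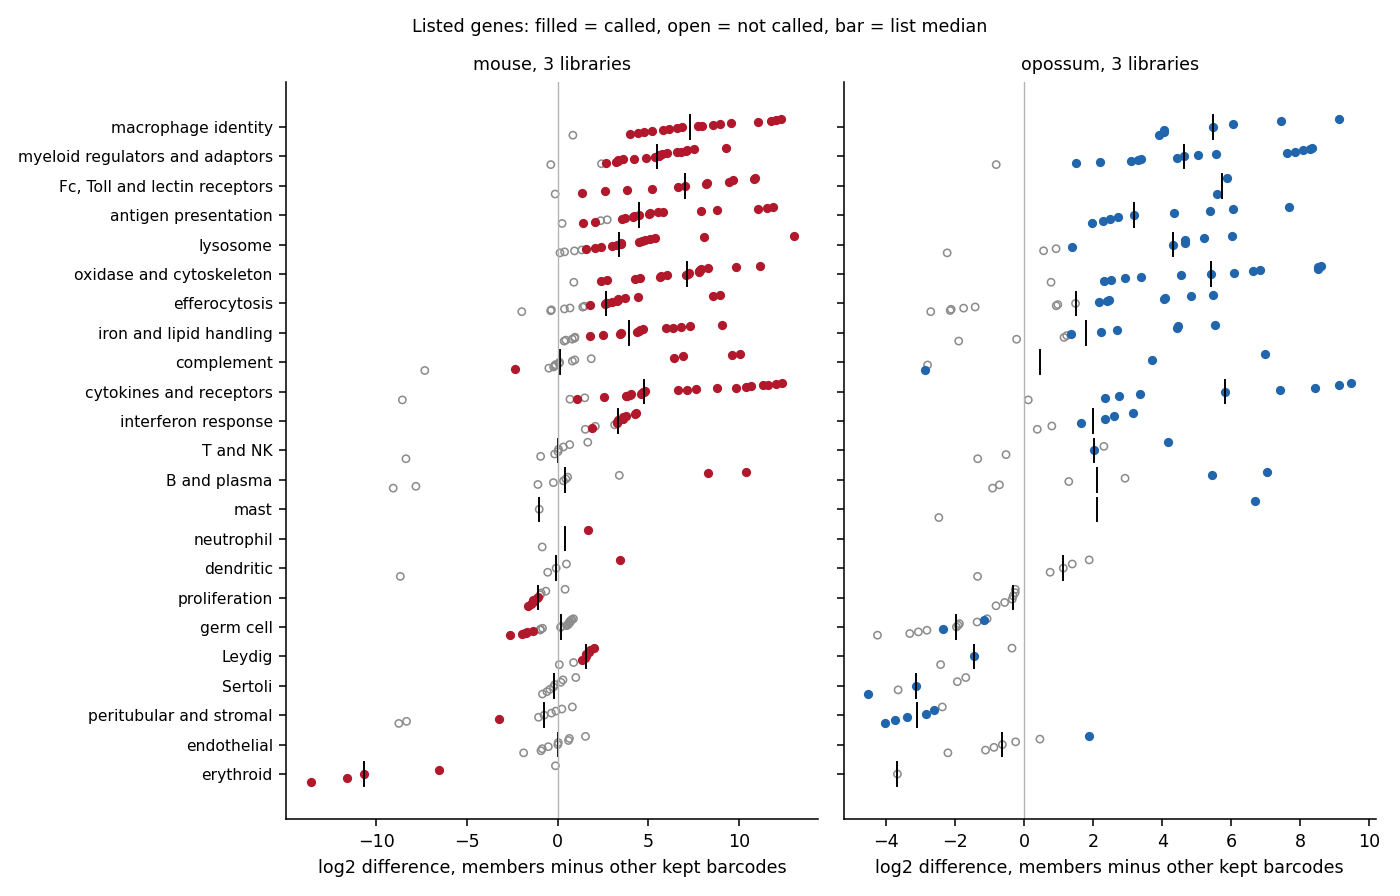
Log2 difference between members and other kept barcodes (x axis) for the genes of each list that passed the low-count filter (rows), in mouse (left) and opossum (right); filled points were called, open points were not, and the black bar is the list median. The myeloid lists lie to the right of 0 in both species, while germ-cell, Leydig, Sertoli and stromal medians lie to the left in opossum and the Leydig median lies to the right in mouse (1.58).

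Regulators and signalling adaptors of phagocytes followed. Of 20 listed genes, 20 passed the filter in mouse with 18 called higher (median 5.47), and 15 in opossum with 14 called higher (median 4.62). Spi1, which encodes PU.1, had 157, 58.1 and 85 CPM in members and 0.716, 0.374 and 1.03 CPM in the other kept barcodes in mouse (log2 difference 7.13, SE 0.43, adjusted p = 1.26e-58) and 422, 335 and 188 against 1.93, 1.44 and 1.08 CPM (opossum; log2 difference 8.07, SE 0.33, adjusted p = 0.00186). Its level in members was above that of the others by more than the spread between libraries in each species. Fcer1g, whose upstream sequence is printed above, had 717, 248 and 852 CPM in members and 1.21, 0.565 and 0.895 CPM in the other kept barcodes (log2 difference 9.25, SE 0.40, adjusted p = 1.1e-115). Lyn, a Src-family kinase, rose by 6.78 in mouse and 3.10 in opossum on the log2 scale. Runx1, a transcription factor of blood cells, rose by 6.60 in mouse. DOCK2, which activates Rac in leukocytes, rose by 5.56 in opossum, and FLI1, an ETS factor, by 4.62. Without opossum replicate 3, LYN (log2 3.16, adjusted p = 0.0569) missed the threshold.

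Receptors for antibody and microbial ligands could be followed mainly in mouse. Of 20 listed genes, 13 passed the filter in mouse and 12 were called higher (median 7.01); in opossum 3 were named, 2 passed and both were called higher (median 5.73). Clec4n, the C-type lectin Dectin-2, had 179, 116 and 104 CPM in members and 0.0821, 0.114 and 0 CPM in the other kept barcodes (log2 difference 10.87, SE 0.48, adjusted p = 4.52e-108). Ly86, the partner of the Toll-like receptor relative CD180, rose by 9.68. Fcgr3, a low-affinity IgG receptor, was also present in other mouse barcodes (234, 89.97 and 119 CPM in members and 40.7, 41.1 and 6.01 CPM in the other kept barcodes; log2 difference 2.61). Clec4a2, a lectin receptor, rose by 1.33. The last pair lost the call without the barcodes of highest doublet score: Fcgr3 (log2 1.52, adjusted p = 0.239) and Clec4a2 (log2 1.07, adjusted p = 0.433). Clec4a2 also lost it without replicate 3 (log2 1.15, adjusted p = 0.0884). In opossum, TLR4, the receptor for endotoxin, had 57, 58.2 and 94.1 CPM in members and 1.49, 1.24 and 3.19 CPM in the other kept barcodes (log2 difference 5.60, SE 0.34, adjusted p = 0.00208). CD180 stood at 13.6, 2.14 and 5.54 CPM in members and rose by 5.87, and without replicate 3 CD180 (log2 6.50, adjusted p = 0.0903) missed the threshold.

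Genes of antigen presentation were called higher for 16 of 19 tested mouse genes (median 4.50) and 9 of 9 opossum genes (median 3.18), of 20 listed, beside 8.69% and 11.8% of all tested genes. H2-Aa, a class II chain (chromosome 17, 34493404 to 34506798 in GRCm39), had 1052, 485 and 562 CPM in members and 0.0915, 0.103 and 0.355 CPM in the other kept barcodes (log2 difference 11.86, SE 0.45, adjusted p = 1.07e-145). H2-Eb1, another class II chain, had 614, 5.04 and 629.8 CPM in mouse members and 1.53, 0.361 and 0.325 CPM in the other kept barcodes (log2 difference 8.79). Replicate 2 was far below the others. Its members held 198575 counts in all, so 5.04 CPM rests on very few counts and is not set against its other barcodes. H2-Ab1 rose by 5.52. B2m, the light chain of class I, rose by 4.50 in mouse (1122, 466 and 442 CPM in members and 35.6, 45.6 and 11.2 CPM in the other kept barcodes) and by 3.18 in opossum (2581, 1509 and 3016 CPM in members and 359.5, 224 and 425 CPM in the other kept barcodes). Opossum CTSS, the protease that trims the class II chaperone, had 262, 257 and 452 CPM in members and 2.17, 1.35 and 2.71 CPM in the other kept barcodes (log2 difference 7.66, SE 0.39, adjusted p = 0.00186). LGMN, the asparaginyl endopeptidase, rose by 6.05, and CTSH, another protease, by 5.38.

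Lysosomal genes were called higher for 14 of 18 tested in mouse (median 3.36) and 6 of 9 in opossum (median 4.31). Lyz2, the lysozyme of mouse myeloid cells (chromosome 10, 117111557 to 117118346 in GRCm39), had the largest increase of the mouse genes named here, with 3358, 2459 and 2280.4 CPM in members and 0.0895, 0.824 and 0.181 CPM in the other kept barcodes (log2 difference 13.02, SE 0.50, adjusted p = 1.56e-145). Every library of members was above 2000 CPM and no library of others reached 1 CPM. Ctsb, the protease cathepsin B, had 999.8, 420.0 and 708 CPM in members and 20.8, 32.8 and 18.7 CPM in the other kept barcodes in mouse (log2 difference 4.80, SE 0.33, adjusted p = 8.85e-45) and 4604, 3767 and 3977 against 139.8, 133 and 159 CPM (opossum; log2 difference 5.21, SE 0.22, adjusted p = 0.00186; chromosome 1, 559716941 to 559741315 in the deposited bulk tables). Psap, the precursor of the saposins, rose by 3.48 in mouse. In opossum CTSZ, another cathepsin, rose by 6.02. Lamp1, a lysosomal membrane protein, was as high in other mouse barcodes (363, 457 and 354 CPM) as in members (347, 512 and 503 CPM; log2 difference 0.13, adjusted p = 0.815), and its sign turned to -0.11 at a minimum of 2000 counts. Opossum LAMP1 rose by 1.39 (129, 85.6 and 72.1 CPM in members and 67.2, 38.4 and 37.1 CPM in the other kept barcodes), and lost the call without replicate 2 (log2 1.39, adjusted p = 0.0826) or replicate 3 (log2 1.43, adjusted p = 0.133).

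Genes of the NADPH oxidase and the leukocyte cytoskeleton were called higher for 17 of 18 tested in mouse (median 7.12) and 12 of 13 in opossum (median 5.40). Cybb, the catalytic subunit of the oxidase, had 79.5, 65.5 and 259 CPM in members and 0.0322, 0.057 and 0.0457 CPM in the other kept barcodes in mouse (log2 difference 11.15, SE 0.52, adjusted p = 5.67e-99), highest in replicate 3. Cyba, the other membrane subunit, rose by 5.72 in mouse and by 6.84 in opossum (845, 629 and 432 against 7.45, 6.04 and 7.36 CPM). RAC2, the small GTPase of the oxidase and of leukocyte movement, had 243, 211 and 168 CPM in members and 0.599, 0.573 and 1.08 CPM in the other kept barcodes (opossum; log2 difference 8.52, SE 0.45, adjusted p = 0.00186). Lcp1, an actin-bundling protein, rose by 7.81 in mouse. In opossum LCP1 had 775, 970.3 and 741 CPM in members and 192, 211 and 247 CPM in the other kept barcodes and rose by 2.31, so that the other opossum barcodes already held it. Mouse Dock8 rose by 4.52 and opossum ARHGDIB by 3.38. Without opossum replicate 3, LCP1 (log2 2.49, adjusted p = 0.0576) missed the threshold.

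For the uptake of dying cells, 12 of 19 tested genes were called higher in mouse (median 2.68) and 7 of 15 in opossum (median 1.48), beside 8.69% and 11.8% of all tested genes. Opossum MERTK, a receptor for phosphatidylserine bridged by GAS6, had 245, 221 and 389 CPM in members and 25.9, 12.6 and 31.9 CPM in the other kept barcodes (log2 difference 4.03, SE 0.35, adjusted p = 0.00389). CD36, a scavenger receptor, had 305, 346 and 463 CPM in members and 11.8, 11.2 and 35.7 CPM in the other kept barcodes (log2 difference 4.81, SE 0.37, adjusted p = 0.00292). ABCA1, which exports cholesterol after uptake, rose by 4.06 in opossum and by 3.73 in mouse. Mouse Gas6, the bridging ligand, had 127, 67.5 and 198 CPM in members and 10.6, 5.70 and 24.9 CPM in the other kept barcodes and rose by 3.30. Elmo1, which acts with Dock1 in engulfment, rose by 2.72 in mouse. It lost the call without the barcodes of highest doublet score (log2 1.99, adjusted p = 0.114). Without opossum replicate 3, MERTK (log2 4.07, adjusted p = 0.0534) missed the threshold.

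Genes of iron and lipid handling followed. Of 18 tested mouse genes 13 were called higher (median 3.94), and of 10 opossum genes 6 (median 1.78), beside 8.69% and 11.8% of all tested genes. Apoe, the lipid carrier, had 7898, 2307 and 4902 CPM in members and 84, 86.1 and 44.6 CPM in the other kept barcodes in mouse (log2 difference 5.99, SE 0.40, adjusted p = 3.37e-49). In opossum APOE had 1797, 1491 and 606 CPM in members and 2171, 1798 and 1444 CPM in the other kept barcodes and was not called (log2 difference -0.23, adjusted p = 0.531). The opossum members lay below the other barcodes of the same library in each of 3 libraries, and the sign turned to 0.11 without replicate 3. Ftl1 and Fth1, the ferritin chains, had 4765, 2285 and 1578 and 3200.3, 1769 and 2993 CPM in mouse members and rose by 4.49 and 2.51. Blvrb, biliverdin reductase B, rose by 4.70 in mouse and by 4.43 in opossum (806, 683 and 410.0 against 33.3, 49.4 and 29.9 CPM). FABP5, a fatty-acid carrier, rose by 1.35 in opossum, with values that overlapped between the groups (1312, 1272 and 3436 CPM in members and 538, 665 and 2092 CPM in the other kept barcodes). It lost the call without replicate 2 (log2 1.45, adjusted p = 0.0758) or replicate 3 (log2 1.50, adjusted p = 0.102). PLIN2, a lipid-droplet protein, had 275, 116 and 234 CPM in members and 203, 92.1 and 78.6 CPM in the other kept barcodes and was not called (adjusted p = 0.0943); it was called without replicate 1 (log2 1.41, adjusted p = 0.0275).

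Of the complement genes other than C1q, 4 of 15 tested were called higher and 1 lower in mouse (median 0.11), beside 8.69% of all tested genes called higher. In opossum 2 of 4 were higher and 1 lower (median 0.45), beside 11.8% of all called higher. C3ar1 and C5ar1, receptors for complement fragments, had 55.6, 35 and 112 and 44.5, 50.4 and 68 CPM in mouse members, against at most 0.158 CPM in the others, and rose by 9.60 and 10.04. Clu, an inhibitor of the terminal pathway, had 122, 33.7 and 40.4 CPM in members and 107, 42.4 and 63.8 CPM in the other kept barcodes and was not called (log2 difference -0.16, adjusted p = 0.799). In opossum CFP, properdin, had 443, 392 and 212 CPM in members and 4.58, 3.97 and 2.19 CPM in the other kept barcodes (log2 difference 6.97, SE 0.31, adjusted p = 0.00186), and C3, the central component, rose by 3.71. C1S, a protease that acts with C1q, was lower in members (6.84, 4.85 and 6.52 CPM in members and 76.7, 39.2 and 64.7 CPM in the other kept barcodes; log2 difference -2.88, adjusted p = 0.00848). Without replicate 3, C1S (log2 -2.81, adjusted p = 0.0799) missed the threshold. C1R, its partner, had 15.6, 2.89 and 0 CPM in members and 54.9, 29 and 27.5 CPM in the other kept barcodes and was not called (adjusted p = 0.0673), and was called without replicate 1 (log2 -3.87, adjusted p = 0.0136) and in 6 other settings, among them DESeq2 (log2 -3.39, adjusted p = 0.0114).

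Cytokines and their receptors were called higher for 22 of 25 tested mouse genes (median 4.77) and 8 of 9 opossum genes (median 5.81). In mouse, the chemokine Ccl8 had 447, 171 and 149.8 CPM in members and 0.063, 0.095 and 0.0617 CPM in the other kept barcodes (log2 difference 11.57, SE 0.47, adjusted p = 4.10e-130), and Ccl24, an eosinophil attractant, had 273, 75.5 and 199.8 CPM in members (log2 difference 10.37). Ccl3 and Ccl4, the inflammatory chemokines MIP-1 alpha and beta, were uneven among libraries. Ccl3 had 18, 35.3 and 383 CPM and Ccl4 6.85, 10.1 and 592 CPM in members, so that replicate 3 was far above replicates 1 and 2; outside the members both were at most 1.25 CPM. In opossum, IL1RN, the antagonist of the interleukin-1 receptor, had 1183, 955 and 705 CPM in members and 0.679, 1.97 and 3.08 CPM in the other kept barcodes (log2 difference 9.48, SE 0.73, adjusted p = 0.00305; chromosome 1, 711813489 to 711821709 in the deposited bulk tables). IL10, a cytokine that restrains inflammation, had 177, 199 and 245 CPM in members and 0.0546, 0.372 and 1.94 CPM in the other kept barcodes (log2 difference 9.12, SE 0.96, adjusted p = 0.00638). CXCR4, a chemokine receptor, rose by 5.81 and TGFB1, a growth factor, by 3.34. Both were present at a like level in the members of all 3 opossum libraries. Without replicate 3, TGFB1 (log2 3.30, adjusted p = 0.0603) missed the threshold.

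Interferon-response genes were called higher for 9 of 12 tested in mouse (median 3.31) and 4 of 6 in opossum (median 1.99). Samhd1, a nuclease that restricts viruses, rose by 3.29 in mouse (51.8, 43 and 74.7 CPM in members and 6.18, 4.27 and 6.32 CPM in the other kept barcodes) and by 3.16 in opossum (114, 62.3 and 125 CPM in members and 16.6, 10.3 and 15.7 CPM in the other kept barcodes). Irf1 and Parp14 rose by 3.33 and 4.26 in mouse, and Irf1 missed the threshold without replicate 2 (log2 2.52, adjusted p = 0.0509). IRF9 rose by 2.59 in opossum. Without opossum replicate 3, SAMHD1 (log2 3.08, adjusted p = 0.0587) and IRF9 (log2 2.82, adjusted p = 0.068) missed the threshold. IFIH1, a sensor of viral RNA, had 64.8, 57.5 and 68.2 CPM in members and 89.2, 56 and 51.1 CPM in the other kept barcodes and was not called. Without the barcodes of highest doublet score, mouse Samhd1 (log2 2.65, adjusted p = 0.052) and Irf1 (log2 2.99, adjusted p = 0.0655) missed the threshold.

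Genes on no list are described next; they were named for their large increase in members, which fixes their direction. In mouse, Wfdc17, a small secreted protein of myeloid cells, had 1616, 537 and 701 CPM in members and 0.0746, 0.594 and 0.045 CPM in the other kept barcodes (log2 difference 11.97, SE 0.46, adjusted p = 1.75e-142; chromosome 11, 83594817 to 83597095 in GRCm39). The other 9 mouse genes named by the rule were Cd300c2, Fcrls, Cd209f, Cbr2, Cd209g, Gpr34, Cyth4, Myo1f and Plek, with log2 differences from 8.68 (Plek) to 11.24 (Cd300c2). Among them are the lectins Cd209f (434, 147 and 75.5 CPM in members) and Cd209g (113, 70.5 and 8.50 CPM). In opossum, SPP1, the secreted protein osteopontin (chromosome 5, 53519983 to 53529112 in the deposited bulk tables), had 1573, 4217 and 13640.0 CPM in members and 2.56, 5.66 and 30.5 CPM in the other kept barcodes (log2 difference 9.57, SE 0.31, adjusted p = 0.00186). Its level in members was lowest in replicate 1 and highest in replicate 3, while the groups stayed apart. CXCL8, the neutrophil attractant interleukin-8, had 202, 395 and 265 CPM in members and 0.347, 0.817 and 0.676 CPM in the other kept barcodes (log2 difference 9.25). RETN, resistin, rose by 9.34, TLR8, a sensor of single-stranded RNA, by 9.24, RGS1 by 9.02 and FYB1 by 9.00. GPR34, CYTH4 and PLEK rose by 9.00, 8.92 and 8.88 in opossum, beside 9.79, 8.73 and 8.68 in mouse. BST1, an enzyme of myeloid and stromal cells, rose by 8.82. Without opossum replicate 3, RETN (log2 10.18, adjusted p = 0.0503) and TLR8 (log2 10.43, adjusted p = 0.0546) missed the threshold. Of the opossum genes called higher, 734 (34.1%) carried no name and are not described.

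Genes of other testis cells were present in the members of both species. The summed level of 20 germ-cell genes was 128966, 66411 and 88371 CPM in mouse members, above the 63864, 47202 and 67744 CPM of the other barcodes in each library. None of the 20 was at 0 in members. The level was uneven among members: mouse cluster 3, described below (36 deep cells, 23 of them under a rule sum of 4), stood at 226753 CPM, and the other 4 clusters at 14023 to 28984 CPM. Prm2, a protamine that packs sperm DNA, had 43348, 20306 and 24252 CPM in members and 18379, 11408 and 17245 CPM in the other kept barcodes in mouse and was not called (log2 difference 0.78). In opossum the sum over 11 named germ-cell genes was 165, 2118 and 2850.3 CPM in members and 10390.5, 20907 and 11129 CPM in the others, so that members were lower in every library. PRM1 had 0, 1232 and 1749 CPM in members and 7898, 17338 and 8332 CPM in the other kept barcodes in opossum and was not called (adjusted p = 0.214). Of the germ-cell list, 6 of 20 tested mouse genes and 2 of 11 opossum genes were called lower and none higher. Of all tested genes 8.91% in mouse and 6.9% in opossum were called lower.

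Of 9 tested Leydig-cell genes 7 were called higher in mouse members (median 1.58), and of 3 tested in opossum 1 was called lower. Of all tested genes 8.69% were called higher in mouse and 6.9% lower in opossum. In mouse the level lay mainly in cluster 5, described below: its 18 cells stood at 13975 CPM for the list, and the other 4 clusters at 18.4 to 220.0 CPM. A Leydig sum of 2.5 was reached by 11.3% of mouse members and 12.7% of the other barcodes. The list summed to 945, 1438 and 1403 CPM in mouse members against 497, 639.7 and 425 CPM, and to 69.2, 208 and 227 CPM in opossum members against 279.9, 572 and 780.2 CPM. Insl3, a hormone of Leydig cells, had 115, 125 and 329 CPM in members and 20.8, 33.1 and 96.8 CPM in the other kept barcodes in mouse (log2 difference 1.98, SE 0.30, adjusted p = 2.95e-09). Cyp17a1, an enzyme of androgen synthesis, rose by 1.34 and Hsd3b6, another, by 1.58. Without the barcodes of highest doublet score these were -0.04 (Insl3), -0.99 (Cyp17a1) and 0.87 (Hsd3b6), and none was called. Cyp17a1 also missed the threshold without replicate 3 (log2 0.82, adjusted p = 0.262). Opossum STAR, which moves cholesterol into mitochondria, fell by 1.46 on the log2 scale (43.3, 120.4 and 133 CPM in members and 169, 369 and 506 CPM in the other kept barcodes), and lost the call without replicate 2 (log2 -1.50, adjusted p = 0.0695) or 3 (log2 -1.40, adjusted p = 0.131). The part of such RNA in the member values was not tested.

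Sertoli, peritubular, stromal and red-cell genes were not called higher in members. The counts below stand beside 8.69% of all tested mouse genes called higher and 8.91% lower. In opossum these shares were 11.8% and 6.9%. In mouse none of 8 Sertoli genes, none of 9 endothelial genes and 1 of 9 peritubular and stromal genes was called: Dcn, a proteoglycan of stroma, had 5.96, 0 and 12.2 CPM in members and 75.7, 84.4 and 26.1 CPM in the other kept barcodes (log2 difference -3.21). In opossum 5 of 6 peritubular and stromal genes were called lower, among them COL1A1 (4.94, 3.65 and 3.58 CPM in members and 100.2, 49.4 and 68.8 CPM in the other kept barcodes) and DCN (2.38, 5.34 and 16.5 CPM in members and 187, 94.5 and 206 CPM in the other kept barcodes). MYH11 and TAGLN, contractile genes, had 63.8, 64 and 31.1 and 11.6, 13.9 and 7.67 CPM in members and fell by 2.86 and 2.62 on the log2 scale. GATA4, a factor of Sertoli and Leydig cells, fell by 3.14. KDR, an endothelial growth-factor receptor, was the only gene of 7 endothelial ones called higher (25.1, 13.2 and 25.3 CPM in members and 8.07, 5.01 and 9.39 CPM in the other kept barcodes; log2 difference 1.87, adjusted p = 0.0267). It lost the call without replicate 2 (log2 1.98, adjusted p = 0.0726) or 3 (log2 1.93, adjusted p = 0.142). Without replicate 3, the calls of COL1A1 (log2 -3.75, adjusted p = 0.0611), DCN (log2 -4.58, adjusted p = 0.0785), MYH11 (log2 -2.40, adjusted p = 0.0933), TAGLN (log2 -1.96, adjusted p = 0.13) and GATA4 (log2 -3.61, adjusted p = 0.143) were lost as well. Hemoglobin transcripts were nearly absent from mouse members: Hbb-bs had 0, 0 and 2.66 CPM in members and 86.2, 133 and 97.9 CPM in the other kept barcodes, and Hba-a1 had no count in members beside 76.5, 69.6 and 25.2 CPM in the others. Of 10 tested cell-division genes, 6 were called lower in mouse members and none of 6 was called in opossum, beside 8.91% and 6.9% of all tested genes called lower. Birc5, an inhibitor of cell death that acts in mitosis, had 40.9, 166 and 57.1 CPM in members and 172, 243 and 148 CPM in the other kept barcodes in mouse (log2 difference -1.38). It was lower in members of all 3 libraries, although the ranges overlapped. Ccnb1 and Ccnb2, mitotic cyclins, fell by 1.07 and 1.16. Without mouse replicate 1 they missed the limits (log2 -0.92, adjusted p = 0.108, and log2 -0.98, adjusted p = 0.0316), as they did without replicate 3 (log2 -1.09, adjusted p = 0.124, and log2 -1.21, adjusted p = 0.0789). Without the barcodes of highest doublet score, Birc5 (log2 -1.60, adjusted p = 0.106) was not called either.

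Lymphoid genes were followed with lists of T and natural killer genes and of B and plasma genes. In mouse none of 8 tested T and natural killer genes was called, and in opossum 2 of 5 were higher, beside 8.69% and 11.8% of all tested genes called higher in mouse and opossum. Mouse Cd3d, a chain of the T-cell receptor complex, had 103, 25 and 25.1 CPM in members and 43.2, 27 and 21.1 CPM in the other kept barcodes, and Cd96, an adhesion receptor, had 53.2, 14.3 and 60.5 CPM in members and 46.1, 25.1 and 49.7 CPM in the other kept barcodes. For both genes members were above the others of their library in replicates 1 and 3 and below them in replicate 2, and neither was called. Cd247, the zeta chain of the complex, had 4.25, 8.46 and 7.15 CPM in mouse members and 13.4, 9.81 and 14.4 CPM in the others. In opossum CD247 had 28, 5.69 and 15 CPM in members and 1.03, 1.13 and 0.839 CPM in the other kept barcodes (log2 difference 4.16, SE 0.67, adjusted p = 0.0181). CD247 lost its call without replicate 3 (log2 4.00, adjusted p = 0.135). ZAP70, a T-cell kinase, had 62.8, 9.96 and 4.23 CPM in members and 3.16, 3.29 and 6.03 CPM in the other kept barcodes and was not called (adjusted p = 0.155). Replicate 1 had the highest level of both genes in members.

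Of the B and plasma list, 2 of 10 tested genes were called higher in mouse and 2 of 6 in opossum, beside the same 8.69% and 11.8%. Ighm, the heavy chain of IgM, had 103, 106 and 95.8 CPM in members and 0.0928, 0.038 and 0.0638 CPM in the other kept barcodes in mouse (log2 difference 10.39, SE 0.51, adjusted p = 6.09e-90), at a nearly even level in the 3 libraries. Tnfrsf17 (BCMA), a receptor of plasma cells, had 22.9, 10.1 and 4.25 CPM in members and rose by 8.29. Replicate 3 held 235289 member counts in all, so its 4.25 CPM rests on very few counts. By the clusters described below, the B and plasma list stood at 385 and 503 CPM in mouse clusters 1 and 2. It was 73.3 to 130 CPM in clusters 3, 4 and 5. No mouse cluster had a gene of the lymphoid lists among its leading genes. Whether these counts came from B or plasma cells was not tested. Pax5, the factor that fixes B-cell identity, had 3.49, 14.2 and 13.9 CPM in members and 3.69, 4.18 and 16.9 CPM in the other kept barcodes in mouse and was not called; members were above the others of their library in replicate 2 only. In opossum BLK, a B-cell kinase, had 45.2, 3.56 and 7.12 CPM in members and 0.276, 0.183 and 0.616 CPM in the other kept barcodes (log2 difference 5.43, SE 0.92, adjusted p = 0.021) and IGKC, the kappa light chain, had 20.8, 55.5 and 5.54 CPM in members and 0.0986, 0.213 and 0.336 CPM in the other kept barcodes (log2 difference 7.04, SE 0.97, adjusted p = 0.0128). PAX5 had 41.8, 16.1 and 7.32 CPM in members and 2.15, 3.11 and 4.15 CPM in the other kept barcodes (adjusted p = 0.054), above the others in each library without passing the threshold. CPA3, the carboxypeptidase of mast cells, had 244, 27.7 and 82.8 CPM in members and 0.309, 0.594 and 3.29 CPM in the other kept barcodes (log2 difference 6.69, SE 1.1, adjusted p = 0.0201). Without replicate 3, BLK (log2 6.33, adjusted p = 0.0933) and CPA3 (log2 7.85, adjusted p = 0.103) missed the threshold. Of the remaining leukocyte lists, mouse Lcn2 (lipocalin 2) was called (1156, 418 and 304 CPM in members and 186, 204 and 111 CPM in the other kept barcodes; log2 difference 1.66) and turned to -1.31 without the barcodes of highest doublet score. Batf3, a factor of dendritic cells, had 4.17, 0 and 14.2 CPM in mouse members (log2 difference 3.44) and lost the call without replicate 2 (log2 3.65, adjusted p = 0.0585) or 3 (log2 2.14, adjusted p = 0.614). None of 5 tested opossum dendritic genes was called.

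Counted per cell, 27 opossum members reached a sum of 2.5 over the T and natural killer list (2.32%, against 1.23% of the other barcodes). In replicates 1, 2 and 3 this share was 11.1%, 1.15% and 0.704% of members. Among the other barcodes it was 0.887%, 2.197% and 0.495%. The pooled excess for this list came mainly from replicate 1, which held 18 of the 27 cells. Members of replicate 2 lay below the others. The B and plasma sum was reached by 25 members (2.15%, against 0.277%) and the mast-cell sum by 11 (0.945%, against 0.272%). C1q and CSF1R are genes of the rule that chose the members, so their counts are a description only. Of these members, 26 of 27, 22 of 25 and 11 of 11 had no count of C1q or CSF1R, against 62 of the 1103 members that reached none of the 3 sums (5.62%). Each kept barcode was then thinned to 1000 counts, which left out none. Before this, every stored entry, zeros among them, was rounded up to a full count. The thinned shares count barcodes with any count of a list, so they cannot be set against the shares at a sum of 2.5. A T and natural killer count was present in 13.6%, 3.69% and 5.11% of opossum members, beside 6.14%, 5.73% and 6.00% of the other barcodes. Pooled over the libraries it was 5.76% and 5.94%. For the B and plasma list the pooled shares were 2.92% and 1.24%, and for the mast-cell list 1.55% and 2.72%.

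In mouse, 17 members reached the T and natural killer sum (8.33%, against 7.30% of the other barcodes), 13 the B and plasma sum (6.37%, against 2.85%) and none the mast-cell sum (0 of 204). Of these, 3 of the 17 and 2 of the 13 had no count of C1q or Csf1r, beside 7 of 175 with none of the sums. The 17 were deep barcodes, with a median of 13735, 11574 and 14028 counts in the 3 libraries, against 2536, 2142 and 2048 for all members. After the same rounding up and thinning to 1000 counts, any T and natural killer count was present in 6.86% of all mouse members and 9.87% of the other barcodes. Any B and plasma count was present in 18.6% and 5.06%. Members that reached the T or the B sum made up 19.8%, 9.30% and 9.23% of mouse members (19, 4 and 6 cells) and 15.4%, 3.92% and 1.58% of opossum members. At a sum of 5 over either list the shares were 6.25%, 2.33% and 4.62% in mouse (10 cells in all) and 11.1%, 2.76% and 0.704% in opossum (34 cells).

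Members were clustered within each species, and clusters are described by number and leading genes with no test. Of 5 mouse clusters, cluster 1 (78 cells) was led by Folr2 (978 CPM, against 21.7 CPM in the other members), Wfdc17, Vsig4 and Cd163, genes of resident macrophages, and is macrophage-like. The phagocytic receptor Timd4 stood at 133 CPM there and Mrc1 at 1560.0 CPM. Cluster 2 (38 cells) was led by class II genes: Cd74 at 18899 CPM, H2-Aa at 8332 CPM and H2-Eb1 at 4679 CPM, with the chemokine Ccl4 at 1589 CPM. It had no count of Folr2, and Ccr2, the receptor of recruited monocytes, stood at 98.4 CPM against 2.35 CPM. Both clusters held Csf1r (715 and 408 CPM). Class II genes and Folr2 thus marked opposite clusters, while Csf1r was present in both. Of the cells of clusters 1 and 2, 35.9% and 50% were among the 8% of highest doublet score; in clusters 3, 4 and 5 it was 27.8%, 41.2% and 44.4%.

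Other mouse clusters had leading genes of other testis cells. Cluster 3 (36 cells) was led by Paqr5 and Tex37 and held Tnp2, a transition protein of spermatids, at 37139.5 CPM, with a median depth of 10328 counts and a median rule sum of 3.94, with 23 of 36 cells under a sum of 4. Cluster 4 (34 cells) was led by Mesp1, Zpbp2, an acrosomal protein, and Lrrc34; its germ-cell sum (21417 CPM) was near that of cluster 1 (20866 CPM). Clusters 3 and 4 together held 70 of the 204 mouse members (34.3%): 29.2%, 48.8% and 32.3% of the members of replicates 1, 2 and 3. Cluster 5 (18 cells) was led by Lcn2 (9945 CPM) and the Leydig genes Cyp17a1 (4437 CPM), Insl3 (2133 CPM) and Star. Outside it, Cyp17a1 stood at 9.91 CPM in the mouse members. The leading genes of clusters 3, 4 and 5 go against an immune identity, and these clusters are left unnamed.

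**Figure D3:**
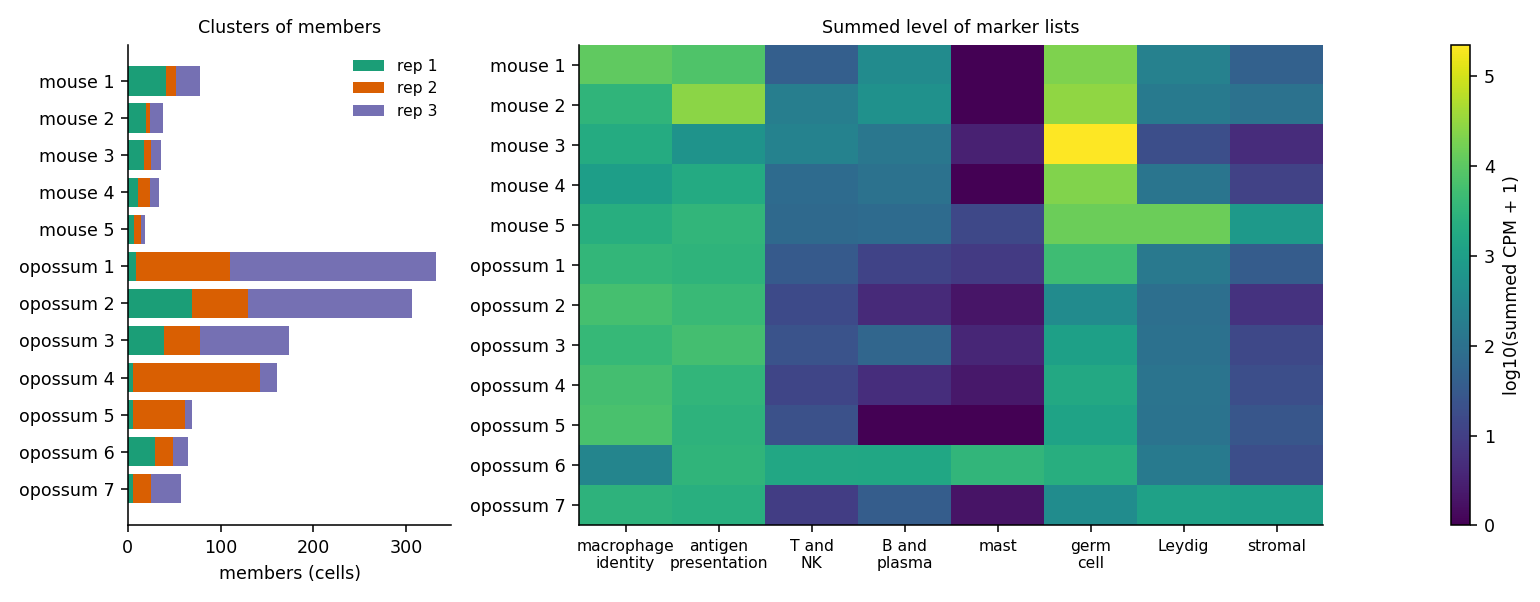
Left, number of members in each cluster (cells), split by library; right, summed level of marker lists in each cluster as log10 of the summed CPM plus 1 (colour). Mouse cluster 3 has the highest germ-cell level and mouse cluster 5 the highest Leydig level, while opossum cluster 6 (65 cells) alone joins high T, B and mast-cell levels with a low macrophage level.

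Opossum members formed 7 clusters. Cluster 6 (65 cells, 29, 20 and 16 per library) held the lymphoid and mast-cell genes: CPA3 at 2802 CPM in 11 cells, HDC, the histamine-forming enzyme, at 556 CPM, ZAP70 at 544 CPM, IGKC at 685 CPM and PAX5 at 485 CPM. In the other opossum members these genes were at 0 (CPA3) to 2.33 CPM (ZAP70). PTPRC, common to all leukocytes, stood at 1845 CPM there, against 382 CPM in the other members. C1QC and MRC1 were at 20.1 and 67.6 CPM, against 2022 and 2397 CPM. It mixes genes of several leukocyte types and is left unnamed. Cluster 3 (174 cells) was led among named genes by PGLYRP1, an antibacterial protein, CYBB (252 CPM), HIST1H4I, a histone, and HLA-DRA, a class II chain (2402 against 247 CPM), and CD74 stood at 4949.9 CPM.

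The remaining opossum clusters are described by their named leading genes. Cluster 2 (306 cells) was led by NWD2, GRPR and CD36 (687 CPM), and cluster 4 (161 cells, 137 of them from replicate 2) by HS3ST5 and CHL1. Cluster 5 (69 cells, 56 from replicate 2) was led by FRMPD4 and KHDRBS2. Most of clusters 4 and 5 came from a single library, so library and cell type cannot be told apart there. Cluster 1 (332 cells) was led mostly by unnamed genes with FAM135B and SPATA24 among the named, and had the highest germ-cell level of the opossum clusters, 4941 CPM. Cluster 7 (57 cells) was led among named genes by HBE1, a hemoglobin gene, RGS5, FIGN, MAP1LC3C, FLT1 (403 CPM) and MYH11 (749 CPM). Its Leydig list summed to 1153 CPM, its peritubular and stromal list to 1064 CPM, its endothelial list to 620 CPM and its erythroid list to 2.26 CPM. The Leydig list stood at 88.2 to 157 CPM in the other opossum clusters. The cluster mixes genes of several cell types and is left unnamed. Of its cells, 66.7% were among the 8% of highest doublet score. In opossum clusters 1 to 6 this share was 0% to 21.5%.

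The members of the species were unlike. The rule had 9 genes in mouse and 6 in opossum. The 20 listed germ-cell genes summed to 128966, 66411 and 88371 CPM in mouse members, above the other barcodes of every library. The 11 named in opossum summed to 165, 2118 and 2850 CPM in members, below the other barcodes of every library. These sums cover different genes, so their sizes cannot be set against each other between species. In the comparison that follows, species and make-up of the members cannot be told apart. To ask where the species differed, the change from other barcodes to members was compared between opossum and mouse on 9635 tested genes, of 10751 matched by symbol. Of these, 570 changed more upward in opossum (5.92%) and 772 less (8.01%), 1342 in all (13.9%; edgeR quasi-likelihood test of the interaction). The median difference of all tested genes was -0.14, and its sign turned without mouse replicate 1 (0.65), 2 (0.45) or 3 (0.62), at a rule sum of 5 (0.57) and without the barcodes of highest doublet score (0.21). Of the 1342 called genes 42.5% were higher in opossum, and without mouse replicate 1 (780 called) it was 80.8%, without mouse replicate 2 68.4% and without mouse replicate 3 79.5%. The counts per direction that follow are those with all libraries. On the list of macrophage identity 2 of 9 tested genes were called, both lower in opossum. Among myeloid regulators 3 of 16 were higher and 6 lower, and among oxidase and cytoskeleton genes 1 of 14 was higher and 6 lower. For efferocytosis 1 of 15 was higher and 4 lower, for iron and lipid handling 1 of 10 higher and 3 lower, and for antigen presentation 1 of 9 higher and 3 lower. Of the lysosomal genes 1 of 9 was lower and none higher.

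The 8 genes named for the largest called differences toward opossum are given first. Where a library stands at 0, the fitted difference depends on the prior count of the fit. RETN, resistin, had 289, 314 and 249 CPM in opossum members against 0.0811, 0.738 and 1.23 CPM, and 0, 3.23 and 2.5 against 3.93, 3.82 and 6.39 CPM in mouse (difference of the log2 changes 10.02, SE 0.94, adjusted p = 0.000146). VAV1, an exchange factor of blood-cell signalling, had 111, 67 and 54.9 against 0.214, 0.192 and 0.64 CPM in opossum and 21, 17.2 and 1.76 against 16.6, 21.6 and 12.6 CPM in mouse (8.50, SE 0.80, adjusted p = 0.000146). In mouse the other barcodes held as much VAV1 as the members, in opossum they held almost none. ISG20, an interferon-induced exonuclease, showed the same kind of contrast, with 86.3, 66.4 and 36.8 CPM in the other mouse barcodes (7.78, SE 0.43, adjusted p = 9.66e-06). CRTAM, an adhesion receptor of activated lymphocytes, differed by 9.19, ANKRD33B by 8.75, and TG, thyroglobulin, by 8.12. ANGPT2, a ligand of the endothelial receptor TIE2, had 52.3, 31.6 and 87.3 CPM in opossum members and 0, 0 and 2.00 CPM in mouse members (11.41, SE 2.38, adjusted p = 0.0139). PLEKHH1 had 546, 342 and 566 CPM in opossum members (10.98, SE 2.46, adjusted p = 0.0189). Without mouse replicate 3, PLEKHH1 (log2 10.20, adjusted p = 0.053) missed the threshold, as it did without the barcodes of highest doublet score (log2 10.52, adjusted p = 0.091).

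The 8 genes named for the largest called differences in the other direction follow. LPL, lipoprotein lipase, had 22.9, 17.4 and 114 CPM in mouse members against 0.263, 0.179 and 0.273 CPM, and 0, 1.42 and 0.598 against 5.81, 2.37 and 4.23 CPM in opossum (-9.41, SE 1.15, adjusted p = 0.000699). PLA2G2D, a secreted phospholipase, had 81.4, 30.2 and 12.8 CPM in mouse members and 0, 0.641 and 0 CPM in opossum members (-13.08, SE 1.31, adjusted p = 0.000255). HPGD, which degrades prostaglandins, had 193, 76.8 and 325 CPM in mouse members and 3.77, 3.60 and 4.35 CPM in opossum members (-7.61, SE 0.63, adjusted p = 8.65e-05). For these 3 genes members exceeded other barcodes in all 3 mouse libraries and lay below them in all 3 opossum libraries. EDNRB, an endothelin receptor, differed by -8.91 and BIN1, a membrane-bending protein, by -7.49, in the same manner. ARL9, a small GTPase, had 32.1, 63.7 and 88.4 CPM in other opossum barcodes and 0, 0 and 0.596 CPM in members (-8.54, SE 0.78, adjusted p = 0.000146). FGFR2, a growth-factor receptor, differed by -9.11, with 0, 0.285 and 0 CPM in opossum members, and ST6GALNAC4, a sialyltransferase, by -8.22. Both missed the threshold without mouse replicate 1: FGFR2 (log2 -8.26, adjusted p = 0.0517) and ST6GALNAC4 (log2 -5.78, adjusted p = 0.284). In addition, 4 genes were chosen after their values were seen. APOE differed by -6.43, SE 0.85, adjusted p = 0.0011, and SLC40A1, the iron exporter ferroportin, by -6.62 (97.3, 55.4 and 158 CPM in mouse and 29.2, 42.8 and 128 CPM in opossum members). The -6.62 is a difference of changes from other barcodes to members, so the member levels alone do not show it. STAB1 differed by -3.69 and RAC2 by 5.61. For STAB1 the levels in the other barcodes differed between species (10.5, 11.3 and 10.1 CPM in opossum and 0.369, 0.184 and 0.417 CPM in mouse).

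**Figure D4:**
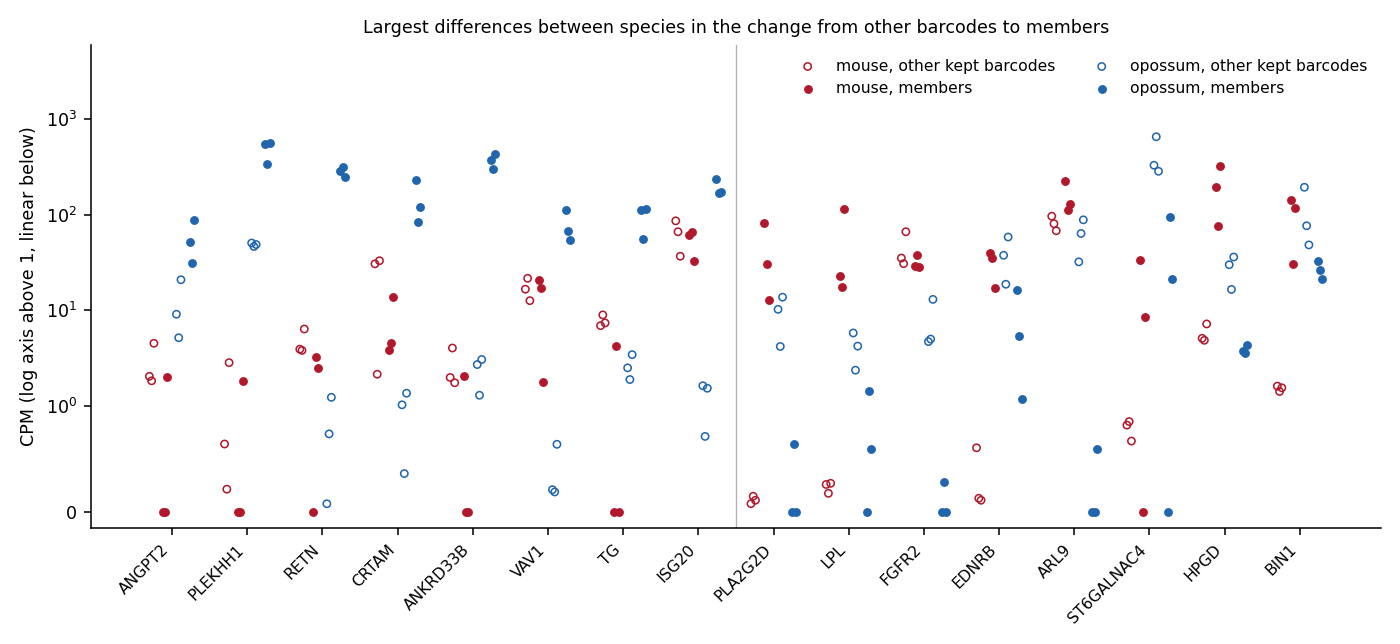
Level in CPM (log axis above 1, linear below) of the 16 genes with the largest called differences between species in the change from other barcodes (open) to members (filled), in mouse (red) and opossum (blue), with 1 point per library. Left of the grey line opossum members lie above the other opossum barcodes in all 3 libraries, and right of it below them in all 3; for LPL mouse members exceed theirs by 7.31 on the log2 scale.

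The bulk libraries, which played no part in choosing the cells, give the same genes over postnatal age in opossum. In bulk tissue, fewer cells of a type and less RNA per cell cannot be told apart. Values are TPM, transcript abundance per length scaled to a fixed total. Between adult (n = 6) and 1 month (n = 2), 8376 of 18890 tested genes were called (44.3%; limma on log2(TPM + 1) over the 16 polyA libraries), 5463 higher in adult (28.9%) and 2913 lower (15.4%), with a median log2 difference of 0.65. Of the 6 rule genes, 1 was called higher, below the share of all genes called higher. CSF1R had 1.94 and 1.64 TPM at 1 month, 6.21 TPM at 2 months, 38.2, 45.6, 60.8 and 23.6 TPM at 3 months, 63.1, 5.60 and 7.01 TPM at 4 months, and 2.77, 41.3 and 110.1 TPM as the lowest, median and highest in adult (log2 difference 3.13, SE 1.18, adjusted p = 0.0402). The adult libraries split: replicates 1 and 3 had 2.77 and 3.44 TPM, near the 1-month level, and the other 4 had 30.5 to 110.1 TPM. The call was lost without either 1-month library (adjusted p = 0.153 and 0.174), without adult replicate 4, 5, 6 or 7 (adjusted p = 0.0621 to 0.0691) and with the replicate block (log2 1.39, adjusted p = 0.469). It was also lost with no low-value filter (adjusted p = 0.0718) and with only the 1-month and adult libraries in the fit (adjusted p = 0.0738).

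C1QC and PTPRC were not called. C1QC had 35 and 36.6 TPM at 1 month, 74.6, 90.5, 73.4 and 70.5 TPM at 3 months, and 15.9, 50.3 and 169.8 TPM as the lowest, median and highest in adult (log2 difference 0.38, SE 0.74, adjusted p = 0.671). It was already present at 1 month, whereas CSF1R was near 2 TPM there. PTPRC had 1.28 and 1.23 TPM at 1 month and 0.478, 4.27 and 14.6 TPM as the lowest, median and highest in adult (log2 difference 1.05, SE 0.76, adjusted p = 0.255). The log2 difference was 1.32 for CD74 (adjusted p = 0.194), 0.82 for C1QA (adjusted p = 0.429) and 1.48 for LAPTM5 (adjusted p = 0.087). LAPTM5 was called without adult replicate 1 (log2 1.73, adjusted p = 0.0354) or 3 (log2 1.75, adjusted p = 0.0357). For C1QC, C1QA, CD74 and PTPRC the adult range enclosed the 1-month values, while for CSF1R and LAPTM5 every adult library lay above both 1-month libraries.

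Of 8 tested macrophage identity genes, 1 was called higher and 1 lower, beside 28.9% and 15.4% of all tested genes, so that the list did not exceed the background. STAB1 had 0.0682 and 0.0518 TPM at 1 month, 14, 17.9, 19.8 and 8.17 TPM at 3 months, and 0.281, 15.5 and 26.7 TPM as the lowest, median and highest in adult (log2 difference 2.96, SE 1.1, adjusted p = 0.0411), and lost the call in the same settings as CSF1R, for instance without adult replicate 7 (log2 2.61, adjusted p = 0.0692) or 1-month replicate 1 (log2 2.97, adjusted p = 0.164). The receptor LYVE1, of lymphatic vessels and some macrophages, went the other way, from 29.7 and 34 TPM at 1 month to between 0.151 and 1.20 TPM in adult (log2 difference -4.46, SE 0.45, adjusted p = 1.91e-06), with no overlap. MRC1 had 6.47 and 8.00 TPM at 1 month and 4.47, 7.22, 63.5, 111, 50.05 and 179 TPM in adult replicates 1, 3, 4, 5, 6 and 7 (log2 difference 2.21, SE 1.1, adjusted p = 0.112). MAF differed by 1.74 (adjusted p = 0.22) and MERTK by -0.70 (adjusted p = 0.267). Without adult replicate 1, MRC1 (log2 2.77, adjusted p = 0.025) was called, and without replicate 3 likewise (log2 2.65, adjusted p = 0.0482). In the 4 libraries depleted of ribosomal RNA, CSF1R was 26.5, 37.4 and 9.47 TPM at 2 months and 42.7 TPM in adult, and these entered no test.

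**Figure D5:**
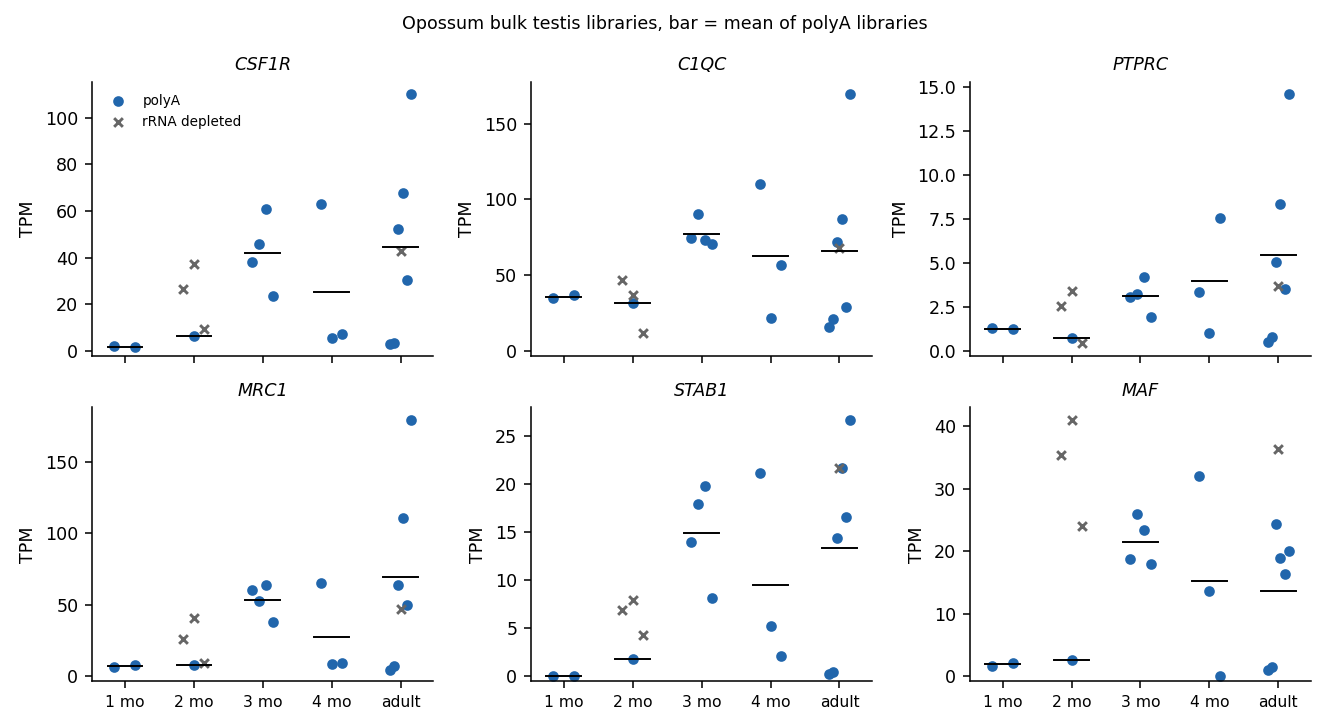
TPM of 6 genes (panels) in each opossum bulk library by age; filled circles are polyA libraries, crosses are libraries depleted of ribosomal RNA and bars are means of the polyA libraries. CSF1R, MRC1 and STAB1 are low in both 1-month libraries, and 2 of the 6 adult polyA libraries lie near the 1-month level.

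Other leukocyte genes are given beside the 28.9% of all tested genes that were higher in adult and the 15.4% that were lower. Of 5 tested T and natural killer genes 3 were higher in adult. NKG7, of cytotoxic granules, was listed at 0 in both 1-month libraries and had 22.7 to 106 TPM in adult (log2 difference 5.37, SE 0.48, adjusted p = 6.46e-07), and ZAP70 rose by 2.5. In the single-cell libraries NKG7 was higher outside the members (32.6, 36.5 and 36.4 CPM) than in them (8.13, 10.03 and 14.4 CPM). Of 9 tested antigen-presentation genes 1 was higher and 5 lower. The higher gene was CIITA, the regulator of class II genes, with 0 TPM in both 1-month libraries and 0.937 to 6.25 TPM in adult (log2 difference 2.09, SE 0.46, adjusted p = 0.00198). Among the lower genes, B2M fell from 7774 and 8009 TPM at 1 month to between 134 and 640.2 TPM in adult (log2 difference -4.94, SE 0.65, adjusted p = 2.73e-05). B2M is not particular to leukocytes and was also present in the other opossum barcodes. CXCR4 fell by 4.03 on the log2 scale (adjusted p = 0.00354). The iron exporter SLC40A1 fell by 5.14 (adjusted p = 1.33e-06). Over the same ages 10 of 11 germ-cell genes were higher (median 7.11), and the part of this in the leukocyte values was not tested. These leukocyte genes beyond the identity list were chosen after their values were seen.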

How the data were processed

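Single-cell libraries were deposited as matrices of estimated counts per gene and barcode, of which 2.63% to 6.92% of entries were whole (tolerance 1e-06); Cell Ranger 6.0.1 and the builds mm39 and GRCm39 are named in the submitters' processing notes, also for opossum, where 1 label gives ASM229v1. Bulk tables hold coverage, FPKM and TPM per the file headers (HISAT2 2.2.1, SAMtools 1.12 and StringTie 2.1.4 per the submitters' processing notes). Reads behind TPM are unknown, so no counting intervals are given, and shares of cells carry counting error beside the spread between libraries. Gene IDs repeated in a bulk table (0 to 4) were summed.

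Counts were summed per library over members and over other kept barcodes and rounded. edgeR 4.0.16 (TMM, filterByExpr, quasi-likelihood) compared the sums with the library as a block and without the rule genes; libraries needed 10 members. SE was taken as the size of the log2 difference over the root of F. Species were compared on symbols present once in each. Bulk log2(TPM + 1) was fitted with limma 3.58.1 (trend) on genes of at least 1 TPM in 2 libraries. The replicate numbers shared by adult and 1-month libraries were 1 in number (r = 0.018) and do not pair them; within a library, members and others share their source. Members were clustered with scanpy 1.11.5 and leidenalg 0.10.2 (1000 variable genes, 20 components, 5 neighbours per library, resolution 0.8). Doublet scores are Scrublet's; the 8% of highest score were kept except in the named alternative. Scripts were checked on simulated data.

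Members and lists were chosen with earlier results of these data known. Named were, per list, up to 4 tested genes of highest mean CPM in members, 10 genes on no list with the largest increase and at least 50 CPM, 8 genes per direction for the species difference with at least 20 CPM, and for bulk the rule and named identity genes; a few others are marked or were given for context. DESeq2 1.42.0, RLE factors, other filters, rules, depth limits and left-out libraries were alternatives. Results for a few genes are not reported here.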

Additional observations from a re-analysis of the deposited data

Results flagged for a closer look

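For 16 genes the change from other barcodes to members differed between the species by the test of the interaction itself (edgeR, adjusted p under 0.05). The members of the species differed in make-up, which cannot be told apart from species here. The difference of the log2 changes, opossum minus mouse, was 11.41 for ANGPT2, 10.98 for PLEKHH1, 10.02 for RETN and 9.19 for CRTAM. It was 8.75 for ANKRD33B, 8.50 for VAV1, 8.12 for TG and 7.78 for ISG20. In the other direction it was -13.08 for PLA2G2D, -9.41 for LPL, -9.11 for FGFR2 and -8.91 for EDNRB. For ARL9 it was -8.54, for ST6GALNAC4 -8.22, for HPGD -7.61 and for BIN1 -7.49. Several of these differences rest on few counts. Mouse ANGPT2 and PLEKHH1 stood at no more than 2.00 CPM in members. Mouse members had 2.07, 0 and 0 CPM of ANKRD33B and 0, 4.20 and 0 CPM of TG. Opossum members had 0, 0.641 and 0 CPM of PLA2G2D and 0, 0.285 and 0 CPM of FGFR2. They had 0, 0 and 0.596 CPM of ARL9 and 0, 1.42 and 0.598 CPM of LPL. Where a library stands at 0, a fitted difference depends on the prior count and is no bound.

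Barcodes below the count or gene minimum, which entered no comparison, also reached the rule sum: 83 of 10267 in mouse (0.808%) and 17 of 14451 in opossum (0.118%). In mouse replicate 2 this was 53 of 3026 (1.75%), above the 0.549% among its kept barcodes. Of 20 groups of bulk values examined for a single library far from the others, none passed Dixon's limit.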

How the results depend on the processing

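Members were called on 9 genes, 6 in opossum, in libraries of 43 to 568 members, and depth limits genes under about 10 CPM. In mouse 3284 genes were called with the library as a block. No replicate block left 922, the removal of the highest doublet scores 639, and leaving out each library gave 1399 (without replicate 1) to 3825. In opossum 3411 genes were called, and 6962 with DESeq2, 5713 at a rule sum of 5, 5437 with at least 2 rule genes, 5893 with entries rounded up, and 373 (without replicate 3) to 4819 with a library left out. For the species difference 1342 genes were called, 708 without the highest doublet scores and 780 (without mouse replicate 1) to 1788 with a library left out. At a rule sum of 5, 73.6% of the called genes were higher in opossum. In bulk 8376 genes were called, 4336 with the replicate block and 5027 (without 1-month replicate 2) to 9914 with a library left out. The mean share of mouse members that reached the T or the B sum was 12.8%, and 4.40% at a sum of 5, while 7.30% of the other mouse barcodes also reached the T sum. The cause of these shifts was not tested.

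Signs turned for Lamp1 (-0.11 at 2000 counts, -0.39 without the highest doublet scores, -0.13 without mouse replicate 3, range -0.13 to 0.12 with a library left out), Clu (0.019 with no replicate block), Lcn2 (-1.31), Cyp17a1 (-0.99) and Insl3 (-0.036) without the highest doublet scores, and opossum APOE (0.11 without replicate 3, range -0.32 to 0.11). With the replicate block in bulk they turned for CD74 (-0.20), PTPRC (-0.40), C1QC (-0.70) and C1QA (-0.49). Adult and 1-month libraries share 1 replicate number. The block was fitted over all 16 polyA libraries, so it also joined libraries of other ages by number. The log2 difference of CSF1R was also smaller with the block (1.39) than in the main fit. No replicate block changed the calls of 11 named mouse genes and 2 named opossum genes. Of genes given by CPM alone, 22 of 28 in mouse and 4 of 26 in opossum took the other sign in at least 1 setting.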
